A study of Homo sapiens with 16 samples.

Results

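The HOX genes of SW480 and SW620 colon cancer cells were followed through the block of Wnt signalling by dnLEF1. A gene was taken as a member when its symbol was HOXA, HOXB, HOXC or HOXD followed by a number from 1 to 13 and nothing more, which gave 39 of the 26485 gene rows. There were 11 HOXA, 10 HOXB, 9 HOXC and 9 HOXD genes. Antisense and long noncoding genes of the clusters were kept apart and are described as a list of their own.

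Polyadenylated RNA was sequenced from 4 groups with 4 libraries each. SW620 dnLEF1 and SW620 GFP cells came from a line grown from a lymph node metastasis, and SW480 dnLEF1 and SW480 GFP cells from a line grown from the primary colon tumour of the same patient. All were at passage 6 in DMEM, and both lines share a truncated APC that keeps Wnt signalling high. GFP marks the mock control, and dnLEF1 is a dominant-negative LEF1 without the part that binds beta-catenin, so that it holds Wnt target genes without activating them. The labels give neither the vector and promoter of the construct nor whether cells were cloned. Whether the libraries of a group came from separate cultures is not stated, so each p-value measures only how far these samples scatter, and that scatter may be technical.

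HOX proteins are homeodomain transcription factors that give cells along the body axis their regional identity. Their genes lie in 4 clusters that arose by duplication, and genes of the same number in different clusters, called paralogues, resemble each other more than they resemble their neighbours. In embryos the low-numbered (anterior) genes are switched on early and towards the head and the high-numbered (posterior) genes late and towards the tail, where the hindgut and colon form. Polycomb complexes keep silent HOX genes closed, trithorax proteins keep active ones open, and retinoic acid, Wnt signals and CDX factors act on the clusters in mouse embryos. Adult colon epithelium keeps a HOX code, and colon tumours often alter it.

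On hg38 with GENCODE 44 the HOXA genes lie on the minus strand of chromosome 7, and the HOXB genes span chr17:48528526-48728750 (200.2 kb, minus strand). The HOXC genes span chr12:53938831-54056030 (117.2 kb, plus strand) and the HOXD genes span chr2:176092721-176190907 (98.19 kb, plus strand). Positions 1 to 3 are called anterior here (8 members), 4 to 8 central (15 members) and 9 to 13 posterior (16 members).

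Upstream sequence was looked at for the words that TCF/LEF and CDX factors recognise, because dnLEF1 is a TCF/LEF factor without its activator and because CDX2 fell with dnLEF1 in SW480. RefSeq's promoter table for GRCh38.p14 held 20 of the 39 members, and the 250 bases before each listed start were searched on both strands. The TCF/LEF word was CTTTGAA, with the variants CTTTGAT, then also CTTTGTA, then also CTTTGTT. The CDX word was CAATAAA, with the variant CCATAAA. No window held words of both kinds. A TCF/LEF word stood in 3 of the 20 HOX windows (15.0%), against 12% of 35116 windows of the same length. A CDX word stood in 3 of the 20 (15.0%), against 5.81%, and HOXC4 and HOXC5 count as separate members there although the table gives them 1 start and so 1 window.

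The windows below are printed 5′ to 3′ on the gene's strand, with the matched word in capitals. They belong to members with large or opposite dnLEF1 effects and to those with a word among the members that changed. HOXD8 (chr2:176129455-176129704, plus strand) has 1 CDX word, read on the other strand, at position -92 from the start. HOXC4 and HOXC5 (chr12:54016638-54016887, plus strand) have 1 CDX word at position -31 from the start listed for both, also on the other strand. In the GENCODE annotation HOXC4 begins at chr12:54016931, but HOXC5 begins only at chr12:54033050. By that annotation the window lies next to the first start of HOXC4, whose span to chr12:54056030 takes in HOXC5. It lies well upstream of HOXC5, so the word is not close to the HOXC5 start. HOXA11 (chr7:27185233-27185482, minus strand) has 1 TCF/LEF word at position -175, on the other strand. HOXA3 (chr7:27152584-27152833, minus strand) and HOXD13 (chr2:176092471-176092720, plus strand) have neither, which says only that these letters are not in these windows. In the GENCODE annotation HOXA3 spans chr7:27106184-27152583, which takes in HOXA4, HOXA5 and HOXA6. The HOXA3 window thus lies between HOXA6 and HOXA7, at the first of its annotated starts. Any start of HOXA3 further along was not searched.
HOXD8: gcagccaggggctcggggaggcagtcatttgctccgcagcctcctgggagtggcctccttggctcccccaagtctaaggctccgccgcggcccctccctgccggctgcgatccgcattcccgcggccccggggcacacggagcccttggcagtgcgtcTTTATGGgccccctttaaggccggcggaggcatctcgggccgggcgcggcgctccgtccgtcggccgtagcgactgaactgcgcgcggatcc
HOXC4 and HOXC5: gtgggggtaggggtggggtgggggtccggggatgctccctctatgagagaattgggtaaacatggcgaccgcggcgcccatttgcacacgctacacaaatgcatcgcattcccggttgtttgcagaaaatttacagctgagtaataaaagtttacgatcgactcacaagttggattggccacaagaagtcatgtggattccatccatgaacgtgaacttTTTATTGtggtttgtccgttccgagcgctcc
HOXA11: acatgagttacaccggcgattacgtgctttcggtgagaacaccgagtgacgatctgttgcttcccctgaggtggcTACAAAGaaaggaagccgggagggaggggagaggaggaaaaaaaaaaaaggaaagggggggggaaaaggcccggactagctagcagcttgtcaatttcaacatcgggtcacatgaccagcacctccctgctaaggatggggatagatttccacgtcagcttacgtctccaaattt
HOXA3: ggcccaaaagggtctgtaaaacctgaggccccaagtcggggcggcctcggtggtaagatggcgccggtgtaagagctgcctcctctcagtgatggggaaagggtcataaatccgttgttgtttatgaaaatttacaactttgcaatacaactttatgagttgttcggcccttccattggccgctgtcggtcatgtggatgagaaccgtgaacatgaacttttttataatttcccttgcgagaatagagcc
HOXD13: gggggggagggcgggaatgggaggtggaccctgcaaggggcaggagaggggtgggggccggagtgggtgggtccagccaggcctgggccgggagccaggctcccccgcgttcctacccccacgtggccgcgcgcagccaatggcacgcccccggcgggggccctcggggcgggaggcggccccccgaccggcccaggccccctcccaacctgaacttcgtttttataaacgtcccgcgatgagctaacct
The sequences differ in base composition. G and C make up 72.4% of the HOXD8 window and 74.0% of the HOXD13 window, against 48.8% of the HOXA3 window. The remaining words were those of HOXB1, at position -220, and HOXD12, at position -101. Both genes were at or near 0 counts in every group.

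Levels are given in CPM, gene counts scaled to the same library total by edgeR's effective library sizes over all 16 libraries, and in CPM per kilobase of merged exons where genes are compared with each other. The 39 members together held 527.8 ± 21.34 CPM in SW620 dnLEF1, 492.5 ± 10.21 in SW620 GFP, 1177 ± 99.33 in SW480 dnLEF1 and 1030 ± 32.22 in SW480 GFP (SD, n = 4 each). The ranges of the SW620 groups stay below those of the SW480 groups. At least 1 CPM on average was reached by 30 members in SW620 dnLEF1, 29 in SW620 GFP, 32 in SW480 dnLEF1 and 32 in SW480 GFP. No count was found for 2, 3, 0 and 1 members in the same order of groups.

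The HOXB cluster held the largest share of the HOX level per kilobase in all 4 groups. Its share was 49.84% in SW620 dnLEF1, 52.6% in SW620 GFP, 81.56% in SW480 dnLEF1 and 77.63% in SW480 GFP. HOXA genes followed with 26.68% in SW620 dnLEF1, 24.44% in SW620 GFP, 11.37% in SW480 dnLEF1 and 14.41% in SW480 GFP. HOXC genes held 18.48% and 19.09% in the SW620 dnLEF1 and GFP groups, and 5.633% and 6.061% in the SW480 dnLEF1 and GFP groups. HOXD genes held the least, at 5.003% in SW620 dnLEF1, 3.883% in SW620 GFP, 1.436% in SW480 dnLEF1 and 1.899% in SW480 GFP. These are shares of unequal totals, 198.7 CPM per kilobase in SW620 GFP and 403.6 in SW480 GFP. In the same order of groups, the HOXA level was 48.55 and 58.17 CPM per kilobase. The HOXC level was 37.92 and 24.46, and the HOXD level 7.714 and 7.664.

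**Figure D1:**
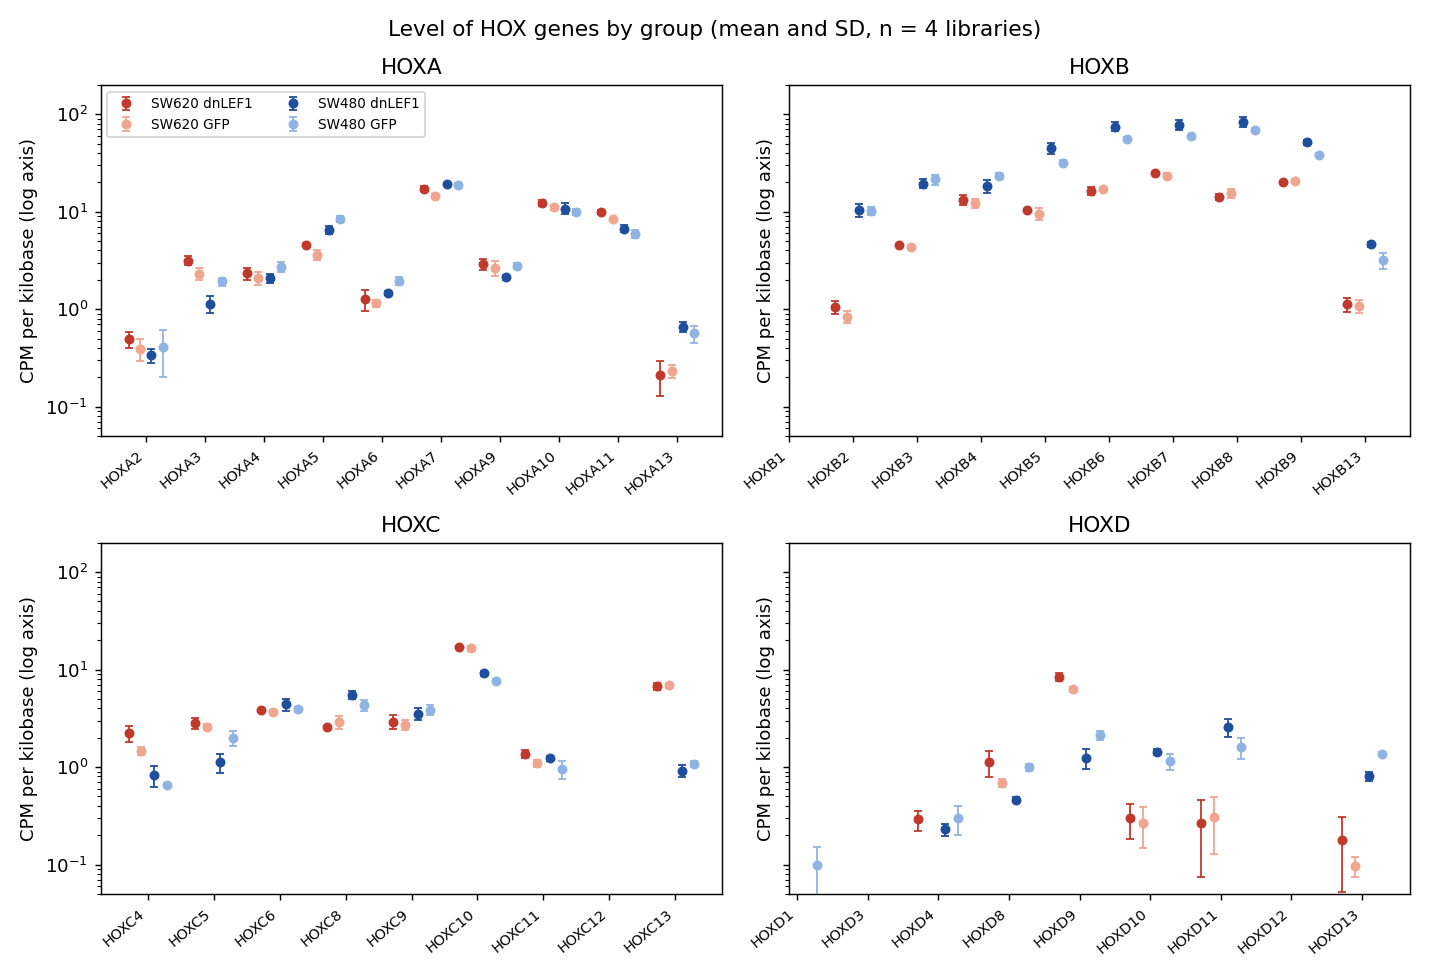
Level of the HOX genes in CPM per kilobase (log axis), with 1 panel for each cluster and genes ordered by number. Points are group means and bars the SD over 4 libraries; means below 0.05 CPM per kilobase are not drawn, which leaves HOXB1, HOXC12, HOXD3 and HOXD12 without points. The SW480 groups stand above the SW620 groups at every drawn HOXB gene.

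Central genes led in every group. They held 55.09% of the HOX level per kilobase in SW620 dnLEF1, 55.52% in SW620 GFP, 72.18% in SW480 dnLEF1 and 70.42% in SW480 GFP. Posterior genes held 39.42% in SW620 dnLEF1, 39.38% in SW620 GFP, 20.58% in SW480 dnLEF1 and 19.99% in SW480 GFP. The posterior level itself was not higher in SW620. It was 84.07 CPM per kilobase in SW620 dnLEF1, 78.25 in SW620 GFP, 97.39 in SW480 dnLEF1 and 80.69 in SW480 GFP. The central level was 117.5, 110.3, 341.5 and 284.2 in the same order. Anterior genes held 5.481% in SW620 dnLEF1, 5.094% in SW620 GFP, 7.252% in SW480 dnLEF1 and 9.601% in SW480 GFP. With the length of the canonical transcript in place of merged exons, a setting added after the data were seen, the anterior shares were 7.602% in SW620 dnLEF1, 7.182% in SW620 GFP, 11.01% in SW480 dnLEF1 and 14.28% in SW480 GFP. HOXB3, an anterior gene, has 7425 bases of merged exons and 3301 in its canonical transcript.

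Each cluster had a leading member per kilobase over all libraries. It was HOXA7 in HOXA, with 17.45 CPM per kilobase, ahead of HOXA10 with 11.03. In HOXB it was HOXB7 with 46.58, just ahead of HOXB8 with 45.58, and by canonical transcript length HOXB6 led with 63.72 against 51.95 for HOXB7. HOXB7 led in both SW620 groups, while HOXB8 led in SW480 dnLEF1 (84 against 78.05 CPM per kilobase for HOXB7) and in SW480 GFP (68.54 against 60.11). In HOXC it was HOXC10 with 12.58, ahead of HOXC6 with 3.957. In HOXD it was HOXD9 with 4.54, ahead of HOXD11 with 1.181. In SW480 dnLEF1, however, HOXD11 (2.557 CPM per kilobase) and HOXD10 (1.43) stood above HOXD9 (1.241).

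Some counts cannot be credited to 1 gene, since the strand setting of the counting is not given. HOXA7 shares 62.51% of its annotated exon bases with HOXA-AS3 and HOXA6 shares 39.3% with it. HOXB6 shares 32.95% with HOXB-AS3 and HOXB3, HOXA11 27.2% with HOXA11-AS, and HOXD8 24.42% with HOXD-AS2. HOXD10 and HOXD11 share exon bases with each other, as do HOXC4 and HOXC6. Their levels are uncertain to that extent.

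**Figure D2:**
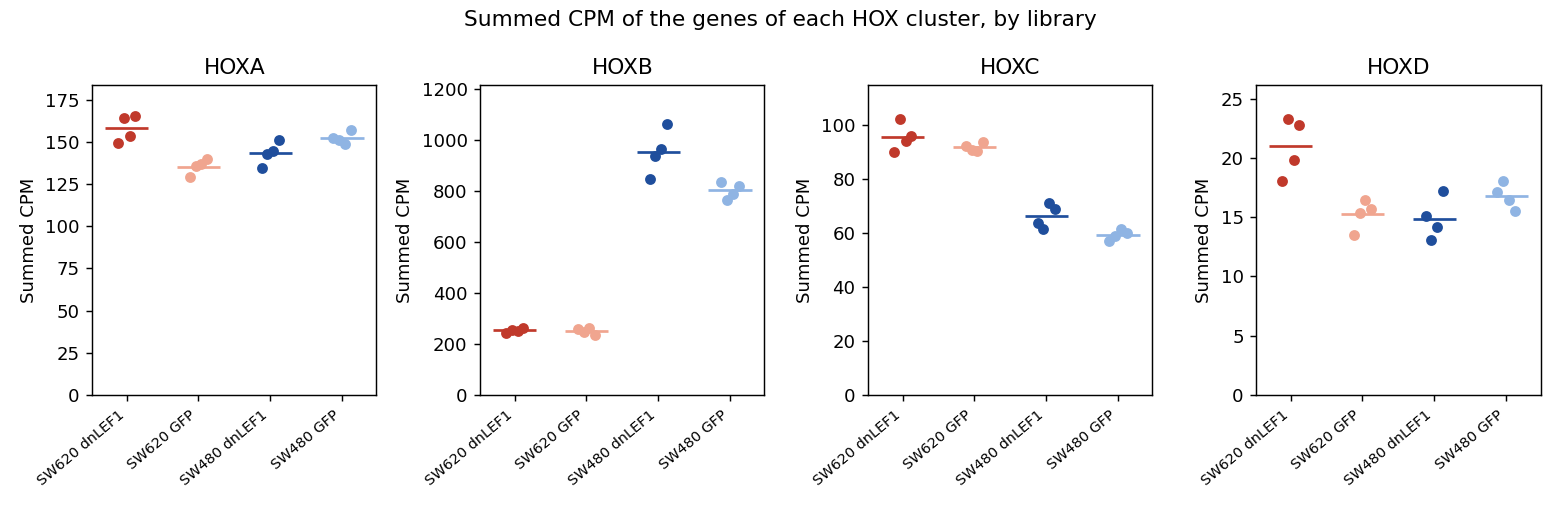
Summed CPM of the genes of each cluster in each library (points) with the group mean (line), each panel with its own axis from 0. The HOXB sum lies between 233.5 and 263.1 CPM in the SW620 libraries and between 765.4 and 1063 CPM in the SW480 libraries.

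Across the series, gene counts ran from 17181204 to 26153506 per library. Lines that name no gene held 20% to 24.3% of all reads in 15 libraries and 50.5% in SW620 GFP replicate 3, most of it reads that aligned to several places. LEF1, whose row also takes reads from the construct, averaged 23.26 ± 2.349 CPM in SW620 dnLEF1 and 3.362 ± 0.5005 in SW620 GFP, and 246.3 ± 49.05 in SW480 dnLEF1 and 51.64 ± 1.891 in SW480 GFP (SD, n = 4 each). In the dnLEF1 against GFP tests it rose in SW620 by 2.79 ± 0.12 and in SW480 by 2.26 ± 0.12 on the log2 scale (SE; edgeR adjusted p = 7.94e-09 and 2.37e-09). The 7 markers of a colon epithelial line summed to 8519 to 10820 CPM in SW620 dnLEF1, 9921 to 12240 in SW620 GFP, 7087 to 8509 in SW480 dnLEF1 and 10710 to 12470 in SW480 GFP, so their sum was lower in SW480 dnLEF1 than in SW480 GFP. KRT20, a keratin of mature colon epithelium, was too low to be tested in any comparison. Of the 6 tested in SW480, 5 fell with dnLEF1 and 1 rose, with log2 changes from -3.84 to 1.56 (100% called, against 48.5% of all genes). In SW620, 2 of 6 fell and none rose, with log2 changes from -1.27 to -0.09 (33.3% called, against 8.46%). Markers of fibroblasts, leukocytes and endothelium stayed low, at most 38 CPM summed over the 7 fibroblast genes, 11.28 over the 6 leukocyte genes and 3.786 over the 4 endothelial genes. Their sums were nonetheless higher in SW480 dnLEF1 (leukocyte 8.589 to 11.28, endothelial 2.187 to 3.786) than in SW480 GFP (4.896 to 6.243 and 0.4343 to 1.367), and PTPRC and CD3E, which define leukocytes and T cells, had no count in SW480 dnLEF1. The fibroblast sums were 14.83 to 38 CPM in SW480 dnLEF1 and 8.883 to 17.59 in SW480 GFP. In SW620 dnLEF1 and SW620 GFP the fibroblast sums were 29.21 to 32.63 and 22.3 to 34.22, the leukocyte sums 5.97 to 6.995 and 4.737 to 5.757, and the endothelial sums 1.105 to 1.966 and 0.9825 to 1.331. Most of the fibroblast sum in SW480 dnLEF1 was COL1A1, a collagen gene, with 28.1 CPM on average, against 4.84 in SW480 GFP. Of the 3 fibroblast markers high enough to test in SW480, 1 rose with dnLEF1 and 2 fell, with a median log2 change of -1.87. The higher sum is therefore not a rise of the whole list. The part of these shifts in the HOX results was not tested. In bulk RNA, fewer cells of a type and less RNA per cell cannot be told apart.

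Changes and differences given with ± in what follows are log2 values with their SE, from 4 libraries a group, unless SD is named. In SW480, members both rose and fell with dnLEF1. Of 33 members tested, 9 rose and 10 fell with dnLEF1 (57.6% called; edgeR adjusted p below 0.05), against 48.5% of all 14426 genes tested, 24.2% higher and 24.4% lower. The members' median log2 change was 0.04, against -0.0013 over all genes. The 4 dnLEF1 and 4 GFP libraries did not overlap for 19 members, against 45.0% of all genes. The 6 members not tested for low counts were HOXB1, HOXC12, HOXD1, HOXD3, HOXD4 and HOXD12.

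The direction of the called members differed between clusters. In HOXA, 5 of 11 tested members fell and none rose (45.5% called, against 48.5% of all genes), with a median of -0.37. In HOXB, 6 of 9 rose and HOXB4 alone fell (77.8% called), with a median of 0.38. In HOXC, 2 of 8 rose and 1 fell (37.5% called). In HOXD, 1 of 5 rose and 3 fell (80.0% called), with a median of -0.76. By position, 2 of 5 anterior members fell and none rose, 5 of 14 central members rose and 5 fell, and 4 of 14 posterior members rose and 3 fell.

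**Figure D3:**
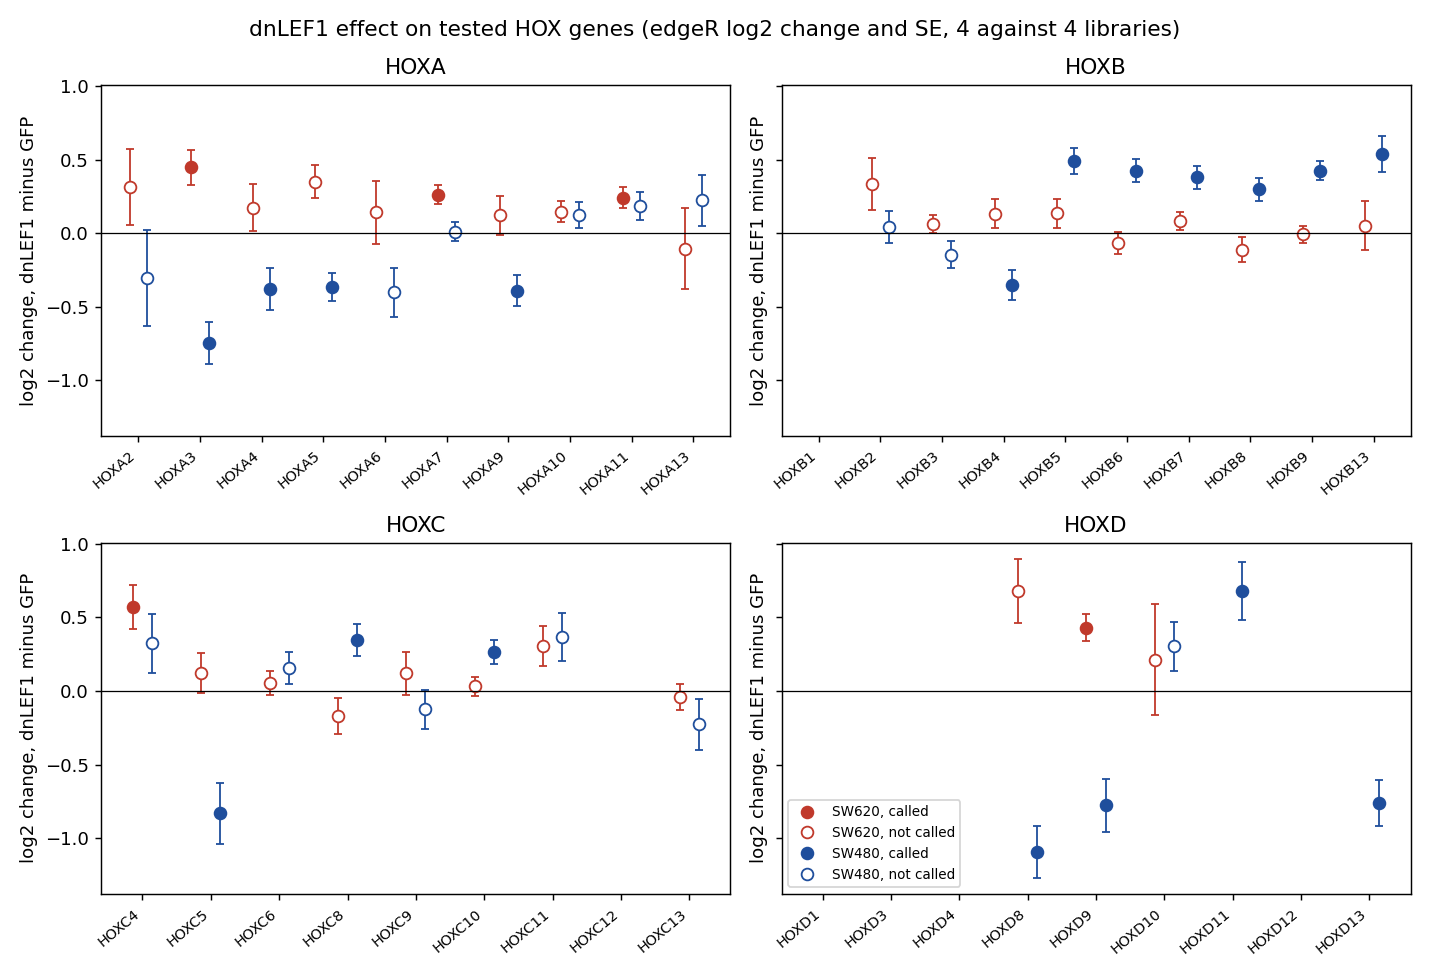
Log2 change (dnLEF1 minus GFP) of the tested HOX genes with its SE, SW620 in red and SW480 in blue, with 1 panel for each cluster. Filled points passed the edgeR test (adjusted p below 0.05). In SW480 the HOXA points from HOXA2 to HOXA6 lie below 0 and the HOXB points from HOXB5 to HOXB13 lie above it; in SW620 all filled points lie above 0.

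HOXA3, needed in mice for the thymus and parathyroid, had 5.029, 4.866, 6.1 and 3.703 CPM in SW480 dnLEF1, against 8.528, 8.535, 7.187 and 8.977 in SW480 GFP. Every dnLEF1 library was below every GFP library, and it fell by 0.75 ± 0.14 (edgeR adjusted p = 0.000671). HOXA9, a regulator of blood stem cells, had 5.948, 6.727, 6.647 and 6.48 CPM in SW480 dnLEF1, against 9.16, 7.82, 8.376 and 8.567 in SW480 GFP. It fell by 0.39 ± 0.11 without overlap (edgeR adjusted p = 0.00713). The table also lists a read-through gene, HOXA10-HOXA9, at 0 in all libraries, so the values of HOXA9 and HOXA10 are uncertain.

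The other HOXA falls were smaller. HOXA5, described as opposing Wnt signalling in human colon, averaged 11.19 ± 1.037 CPM in SW480 dnLEF1 and 14.43 ± 0.9755 in SW480 GFP (SD, n = 4 each; log2 change -0.37, edgeR adjusted p = 0.00621). HOXA4 averaged 3.601 CPM in SW480 dnLEF1 and 4.7 in SW480 GFP (log2 change -0.38, edgeR adjusted p = 0.0434), a call that was lost in 8 of the 14 alternative settings, with an adjusted p of up to 0.127. HOXA7, the leading HOXA member, had 45.09, 45.69, 47.37 and 46.01 CPM in SW480 dnLEF1, against 43, 46.52, 46.88 and 46.94 in SW480 GFP. These ranges overlap, and its log2 change of 0.01 ± 0.06 was not called (edgeR adjusted p = 0.91). Among the HOXA genes at positions 10 to 13 none was called, with log2 changes of 0.12 to 0.22.

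The neighbours HOXB5 to HOXB9 rose, and so did HOXB13. HOXB5 had 74, 81.91, 78.5 and 98.17 CPM in SW480 dnLEF1, against 63.57, 55.72, 58.63 and 59.38 in SW480 GFP, a rise of 0.49 ± 0.09 without overlap (edgeR adjusted p = 0.000322). HOXB9, which shapes the thoracic skeleton in mice, had 121.7, 135.6, 139 and 137.7 CPM in SW480 dnLEF1, against 95.59, 103, 101.1 and 98.71 in SW480 GFP. All dnLEF1 libraries were above all GFP libraries, and the rise was 0.43 ± 0.06 (edgeR adjusted p = 8.13e-05). HOXB13, a posterior gene known from prostate and distal hindgut, had 14.48, 14.68, 12.75 and 14.3 CPM in SW480 dnLEF1, against 7.778, 12.11, 9.804 and 9.16 in SW480 GFP. It had the largest HOXB rise, 0.54 ± 0.12 without overlap (edgeR adjusted p = 0.00245).

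HOXB7, the leading HOXB member over all libraries, had 115.6, 110.8, 109.5 and 138.5 CPM in SW480 dnLEF1, against 93.45, 91.97, 92.47 and 87.59 in SW480 GFP. It rose by 0.38 ± 0.08 without overlap (edgeR adjusted p = 0.00121). HOXB6 and HOXB8 rose by 0.42 and 0.30. HOXB4, which expands blood stem cells when overexpressed, went the other way, at 36.78 ± 5.734 CPM in SW480 dnLEF1 and 47.08 ± 3.252 in SW480 GFP (SD, n = 4 each), a fall of 0.35 ± 0.10 (edgeR adjusted p = 0.0102). HOXB2 and HOXB3, on the anterior side of HOXB4, were not called, with log2 changes of 0.04 and -0.15.

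In HOXC the falling member was HOXC5 and the rising ones HOXC8 and HOXC10. HOXC5 had 2.012, 1.269, 2.188 and 1.759 CPM in SW480 dnLEF1, against 3.672, 2.771, 3.76 and 2.689 in SW480 GFP. It fell by 0.83 ± 0.21 without overlap, the largest change of the cluster (edgeR adjusted p = 0.00404). HOXC10, the leading HOXC member and a factor of hindlimb motor neurons in mice, had 21.82, 20.77, 23.52 and 20.64 CPM in SW480 dnLEF1, against 17.14, 18.23, 19.32 and 17.77 in SW480 GFP. It rose by 0.26 ± 0.08 without overlap (edgeR adjusted p = 0.014). HOXC8 rose by 0.35 ± 0.11 (edgeR adjusted p = 0.0169), with 13.51, 11.51, 13.92 and 14.12 CPM in SW480 dnLEF1 and 10.94, 9.652, 9.138 and 11.99 in SW480 GFP, ranges that overlap. Its call was lost without SW480 GFP replicate 2 (adjusted p = 0.05) or replicate 3 (0.0539).

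HOXD8 had the largest change of any member and the only one of at least 2-fold. It stood at 1.181, 1.312, 1.178 and 1.203 CPM in SW480 dnLEF1, against 2.29, 2.637, 2.713 and 2.825 in SW480 GFP, and fell by 1.09 ± 0.18 without overlap (edgeR adjusted p = 0.000163). Its window with the CDX word is printed above. HOXD9, the leading HOXD member over all libraries, had 2.755, 1.819, 1.935 and 2.777 CPM in SW480 dnLEF1, against 3.474, 4.29, 3.76 and 4.42 in SW480 GFP. It fell by 0.78 ± 0.18 without overlap (edgeR adjusted p = 0.00272). HOXD13, the last gene of the cluster, which shapes digits and the hindgut end, had 1.793, 1.904, 1.851 and 2.268 CPM in SW480 dnLEF1, against 3.435, 3.307, 3.427 and 3.099 in SW480 GFP. It fell by 0.76 ± 0.16 without overlap (edgeR adjusted p = 0.00127). HOXD11 between them rose by 0.68 ± 0.20 (edgeR adjusted p = 0.011), at 5.411 ± 1.119 CPM in SW480 dnLEF1 and 3.372 ± 0.8047 in SW480 GFP (SD, n = 4 each).

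In SW620 fewer members moved, and those that were called rose. Of 31 members tested, 5 rose with dnLEF1 and none fell (16.1% called; edgeR adjusted p below 0.05), against 8.46% of all 13336 genes tested, 6.03% higher and 2.43% lower. At an unadjusted p under 0.05, 8 were higher and 0 lower, and DESeq2 and limma voom each gave 5 higher and 0 lower. The median log2 change was 0.14 over the members and -0.0044 over all genes, and the groups did not overlap for 6 members, against 13.7% of all genes. HOXD11 and HOXD13 were too low to be tested here, besides the 6 not tested in SW480.

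HOXD9 had 14.14, 17.49, 15.25 and 16.66 CPM in SW620 dnLEF1, against 10.83, 11.66, 12.35 and 12.28 in SW620 GFP. The groups did not overlap and it rose by 0.43 ± 0.09 (edgeR adjusted p = 0.00819), the 1 call of the 5 that was kept in all 14 alternatives. HOXA3 had 12.16, 12.58, 14.43 and 15.17 CPM in SW620 dnLEF1, against 7.888, 10.05, 10.91 and 11.16 in SW620 GFP. It rose by 0.45 ± 0.12 without overlap (edgeR adjusted p = 0.0328), which ranged up to 0.12 when 1 library was left out. HOXC4 had 6.081, 7.854, 5.229 and 5.431 CPM in SW620 dnLEF1, against 4.17, 4.61, 3.832 and 3.751 in SW620 GFP. It had the largest rise of the 5 called members, 0.57 ± 0.15 without overlap (edgeR adjusted p = 0.026).

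The remaining rises were small. HOXA7 had 39.45, 42.89, 40.46 and 43.94 CPM in SW620 dnLEF1, against 34, 34.44, 33.27 and 37.24 in SW620 GFP, a rise of 0.26 ± 0.07 without overlap (edgeR adjusted p = 0.0209). HOXA11, a limb and uterus gene whose window holds a TCF/LEF word, had 25.36, 28.72, 25.63 and 26.66 CPM in SW620 dnLEF1, against 22.03, 22.13, 22.25 and 23.4 in SW620 GFP. It rose by 0.24 ± 0.07 without overlap (edgeR adjusted p = 0.0428), and the call was lost when any 1 library was left out.

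The count of 5 rests on all libraries. It was 3 without SW620 GFP replicate 1, 3 or 4 or without SW620 dnLEF1 replicate 1 or 2, 2 without SW620 GFP replicate 2 or SW620 dnLEF1 replicate 4, and 4 without SW620 dnLEF1 replicate 3. The HOXA3 call was lost without SW620 GFP replicate 1 or 2 or SW620 dnLEF1 replicate 3 or 4. The HOXA7 call was lost without SW620 GFP replicate 2 or 3 or SW620 dnLEF1 replicate 4, and the HOXC4 call without SW620 GFP replicate 3 or 4 or SW620 dnLEF1 replicate 1 or 2. None of the 9 HOXB members was called, against 8.46% of all genes. None passed an unadjusted p of 0.05, and their log2 changes ran from -0.11 to 0.33. HOXB7 had 38.02, 38.78, 37.19 and 36.65 CPM in SW620 dnLEF1, against 36.22, 36.47, 37.1 and 32.42 in SW620 GFP, with a log2 change of 0.08 ± 0.06 (edgeR adjusted p = 0.539). HOXC10 had 38.66, 42.03, 39.71 and 40.42 CPM in SW620 dnLEF1, against 40.44, 36.88, 38.37 and 41.58 in SW620 GFP, with a log2 change of 0.03 ± 0.06 (edgeR adjusted p = 0.854). Both pairs of ranges overlap.

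The lines' dnLEF1 effects were set against each other in 1 fit of all 16 libraries. Of 33 members, 10 had a more positive dnLEF1 effect in SW620 than in SW480 and 5 a more negative one (45.5% called; edgeR adjusted p below 0.05), against 28.5% of all 14926 genes, 16.2% and 12.3%. The more positive ones were 5 HOXA genes, HOXB4, HOXC5 and 3 HOXD genes. The more negative ones were HOXB6, HOXB7, HOXB8 and HOXB9 with HOXC8. Without SW620 GFP replicate 3, the 5 became 3.

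HOXA3 and HOXD9 were the only members called in both lines in opposite directions. HOXA3 rose in SW620 and fell in SW480, and the effects differed by 1.20 ± 0.19 on the log2 scale (SE; edgeR adjusted p = 7.35e-05). HOXD9 likewise rose in SW620 and fell in SW480, with a difference of 1.21 ± 0.19 (edgeR adjusted p = 4.22e-05). For HOXD8 the difference was 1.78 ± 0.28 (edgeR adjusted p = 6.22e-05). HOXD8 had 2.769, 3.927, 1.848 and 3.192 CPM in SW620 dnLEF1 and 1.541, 1.89, 1.863 and 1.92 in SW620 GFP, a log2 change of 0.68 that was not called (edgeR adjusted p = 0.0788). Replicate 3 of the SW620 dnLEF1 libraries lies within the GFP range, and without it the change was called (adjusted p = 0.0148).

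Other members of HOXA, HOXB, HOXC and HOXD also differed. HOXA5 differed by 0.72 ± 0.14 (edgeR adjusted p = 0.000516). HOXA5 had 7.564, 8.161, 7.981 and 7.876 CPM in SW620 dnLEF1, all above the 5.666, 5.947, 7.238 and 5.984 of SW620 GFP, with a log2 change of 0.35 that was not called (edgeR adjusted p = 0.0745) but was without SW620 GFP replicate 3 (0.0362). HOXC5 differed by 0.96 ± 0.24 (edgeR adjusted p = 0.00498) and HOXB4 by 0.49 ± 0.15 (0.0198). HOXD13 differed by 1.71 ± 0.47 (edgeR adjusted p = 0.00939), a call lost without SW620 dnLEF1 replicate 3 (0.0916), which held 0.8649 CPM against 0.1483, 0.3068 and 0.4146 in the other 3 SW620 dnLEF1 libraries. In SW620 GFP it had 0.2267, 0.2766, 0.1597 and 0.2679 CPM.

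On the negative side, HOXB9 differed by -0.43 ± 0.08 (edgeR adjusted p = 0.000315). It had 52.51, 51.48, 54.06 and 52.73 CPM in SW620 dnLEF1 and 54.9, 49.56, 53.6 and 54.12 in SW620 GFP, close together beside its rise in SW480. HOXB6 differed by -0.49 ± 0.11 (edgeR adjusted p = 0.00177) and HOXC8 by -0.51 ± 0.16 (0.0219). The HOXC8 call was lost without SW620 GFP replicate 3 (adjusted p = 0.0524). The interaction calls of HOXA7, HOXA9, HOXB4 and HOXB7 were also each lost on leaving out at least 1 library.

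**Figure D4:**
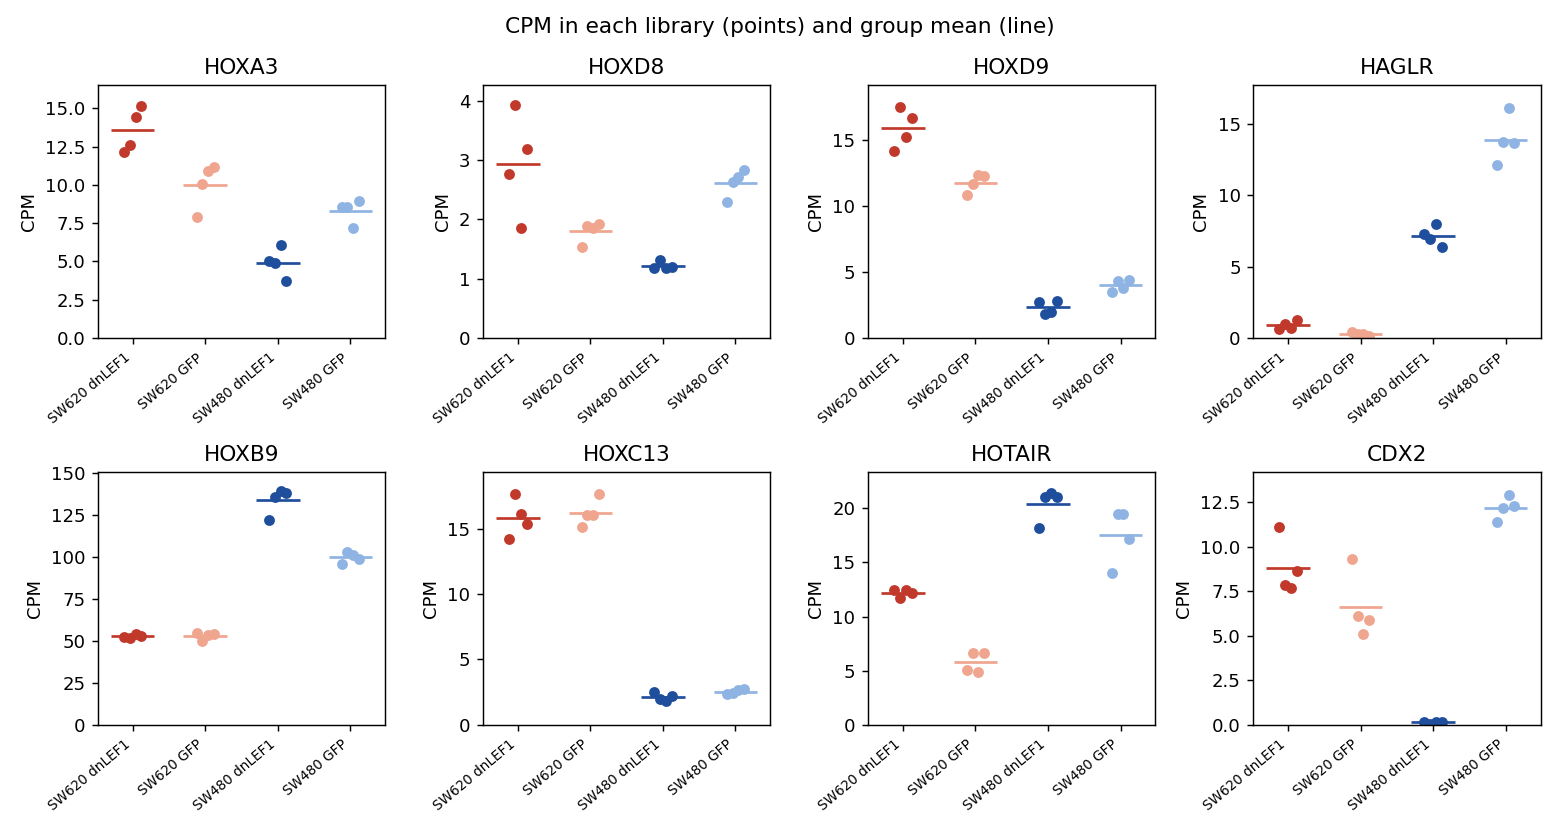
CPM in each library (points) and group mean (line) for 6 HOX or HOX-cluster noncoding genes with line-dependent values, HOXC13 and CDX2, each panel with its own axis from 0. HOXA3, HOXD9 and HAGLR are higher in SW620 dnLEF1 than in SW620 GFP and lower in SW480 dnLEF1 than in SW480 GFP; CDX2 is at most 0.1749 CPM in SW480 dnLEF1.

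Most members differed between the lines. SW620 GFP was set against SW480 GFP, 2 groups that also serve as the controls above. Of 33 members tested, 7 were higher and 21 lower in SW620 GFP (84.8% called; edgeR adjusted p below 0.05), against 78.0% of all 14350 genes, 37.7% higher and 40.3% lower. The difference was at least 2-fold for 17 of the called members. The groups did not overlap for 26 members, against 72.5% of all genes. The median log2 difference was -0.58 over the members and -0.02 over all genes.

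All 9 tested HOXB members were lower in SW620 GFP, against 40.3% of all genes, with a median of -1.70. HOXB2, which patterns the hindbrain, had 1.813, 1.844, 2.395 and 2.188 CPM in SW620 GFP, against 28.55, 22.97, 24.8 and 23.79 in SW480 GFP. The groups lie far apart, and the log2 difference was -3.61 ± 0.12 (edgeR adjusted p = 2.24e-12). HOXB3 had 33.5, 31.81, 33.58 and 30.5 CPM in SW620 GFP, against 184.9, 142.2, 149.4 and 162.4 in SW480 GFP (-2.31 ± 0.08, edgeR adjusted p = 3.42e-12). HOXB8 had 41.25, 34.9, 39.86 and 32.6 CPM in SW620 GFP, against 168.3, 155.9, 163 and 172 in SW480 GFP (-2.16 ± 0.07, edgeR adjusted p = 2.99e-12). HOXB7 differed by -1.37 ± 0.06 (edgeR adjusted p = 3.62e-11). HOXB9 and HOXB4 had the smallest differences, -0.92 and -0.96.

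**Figure D5:**
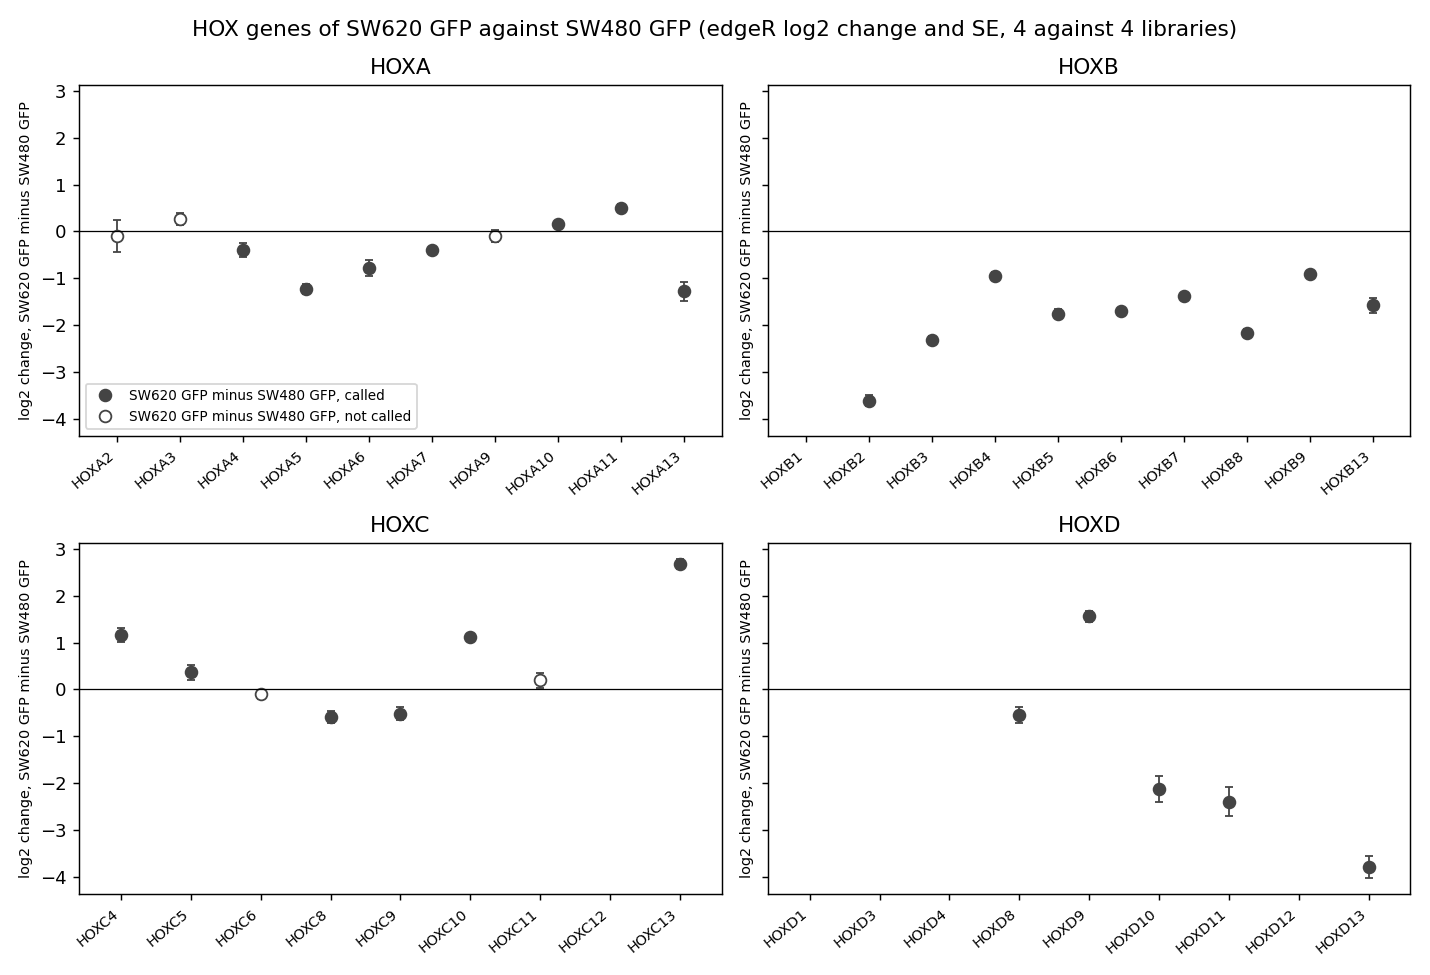
Log2 difference of the tested HOX genes between SW620 GFP and SW480 GFP with its SE, with 1 panel for each cluster. Filled points passed the edgeR test (adjusted p below 0.05). All HOXB points lie below 0, while HOXC13, HOXD9, HOXC4 and HOXC10 lie above 1.

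In HOXA, 2 of 11 tested members were higher and 6 lower in SW620 GFP (72.7% called, against 78.0% of all genes). HOXA5 had the values given above in SW620 GFP, against 14.85, 14.08, 13.28 and 15.54 CPM in SW480 GFP, and differed by -1.23 ± 0.11 (edgeR adjusted p = 8.31e-08). HOXA13, the last gene of that cluster and a limb and hindgut factor, had 1.088, 0.9681, 1.331 and 1.34 CPM in SW620 GFP, against 2.882, 2.279, 2.665 and 3.6 in SW480 GFP. It differed by -1.28 ± 0.21 without overlap (edgeR adjusted p = 4.74e-05). HOXA7 differed by -0.41 ± 0.06 (edgeR adjusted p = 3.16e-05). The higher ones were HOXA11, by 0.50 ± 0.08 (edgeR adjusted p = 5.3e-05), and HOXA10, by 0.16, a call that DESeq2 did not make (adjusted p = 0.068).

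In HOXC, 4 of 8 tested members were higher and 2 lower in SW620 GFP (75.0% called, against 78.0% of all genes). DESeq2 called 3 higher and 2 lower. HOXC13, known for hair and nail keratins, had 15.14, 16.04, 16.02 and 17.64 CPM in SW620 GFP, against 2.329, 2.413, 2.618 and 2.734 in SW480 GFP. It had the largest positive difference of all members, 2.68 ± 0.11 (edgeR adjusted p = 2.27e-11). Its dnLEF1 effect was not called in either line, with log2 changes of -0.04 in SW620 and -0.23 in SW480. HOXC4 had the SW620 GFP values given above, against 1.856, 1.832, 1.904 and 1.686 CPM in SW480 GFP (1.16 ± 0.15, edgeR adjusted p = 6.25e-06). HOXC10 in SW620 GFP, as given above, exceeded every SW480 GFP library (1.11 ± 0.07, edgeR adjusted p = 2.29e-09). HOXC5 was higher by 0.36, a call lost under DESeq2 (adjusted p = 0.0661).

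In HOXD, 1 of 5 tested members was higher and 4 lower in SW620 GFP (100% called, against 78.0% of all genes). HOXD9 was higher by 1.56 ± 0.12 (edgeR adjusted p = 1.41e-08), while HOXD8, HOXD10, HOXD11 and HOXD13 were lower. HOXD8 differed by -0.54 ± 0.17 (edgeR adjusted p = 0.00918). HOXD13 differed by -3.79 ± 0.23 (edgeR adjusted p = 1.53e-09), the largest difference of any member. HOXD11 had 0.4533, 0.3688, 1.224 and 0.5805 CPM in SW620 GFP, against 3.988, 3.888, 3.379 and 2.233 in SW480 GFP (-2.40 ± 0.31, edgeR adjusted p = 5.6e-06). HOXD10, which shares exon bases with it, had 0.3173, 0.9681, 0.8516 and 0.5359 CPM in SW620 GFP, against 3.435, 3.128, 2.76 and 2.187 in SW480 GFP (-2.12 ± 0.28, edgeR adjusted p = 6.65e-06). HOXD1, too low for the test, had no count in SW620 GFP against 17 counts in SW480 GFP, at least 5.25-fold lower against a floor of 3 counts over the group, which covers counting error only.

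Paralogues differed in direction. Among the genes of number 13, HOXC13 was higher in SW620 GFP, while HOXA13, HOXB13 and HOXD13 were lower, by -1.28, -1.58 and -3.79. Among the genes of number 9, HOXD9 was higher by 1.56, HOXB9 and HOXC9 were lower by -0.92 and -0.52, and HOXA9 was not called at -0.09 (edgeR adjusted p = 0.526). In SW480 dnLEF1 against SW480 GFP the same group held a rise of HOXB9, falls of HOXA9 and HOXD9, and HOXC9 at -0.13 without a call (edgeR adjusted p = 0.467).

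The list of noncoding and antisense genes of the clusters held 17 rows. It took every other row whose symbol begins with HOX, so the read-through gene HOXA10-HOXA9, without a count, is among them. In SW620, 2 of 11 tested rose with dnLEF1 and none fell (edgeR adjusted p below 0.05; 18.2% called, against 8.46% of all genes), with a median log2 change of 0.19 against -0.0044 over all genes. In SW480, 3 of 15 tested rose and 3 fell (40% called, against 48.5% of all genes), with a median of 0.22 against -0.0013 over all genes. HAGLR, transcribed from the HOXD cluster and sharing exon bases with HOXD1 and HOXD3, was called in both lines in opposite directions, like HOXD9 and HOXA3.

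HAGLR had 0.6427, 0.9818, 0.6684 and 1.244 CPM in SW620 dnLEF1, against 0.408, 0.2766, 0.2661 and 0.134 in SW620 GFP. It rose by 1.68 ± 0.38 from a low level, without overlap (edgeR adjusted p = 0.0113). In SW480 dnLEF1 it had 7.303, 6.939, 7.993 and 6.341 CPM, against 12.12, 13.72, 16.09 and 13.67 in SW480 GFP, a fall of 0.95 ± 0.11 without overlap (edgeR adjusted p = 9.2e-06). The effects differed by 2.64 ± 0.35 between the lines, SW620 minus SW480 (edgeR adjusted p = 6.47e-06). HOTAIR, transcribed from the HOXC cluster and known for its link to Polycomb, had 12.46, 11.72, 12.5 and 12.15 CPM in SW620 dnLEF1, against 5.032, 6.593, 4.843 and 6.609 in SW620 GFP. It rose by 1.08 ± 0.12 without overlap (edgeR adjusted p = 4.69e-05). In SW480 dnLEF1 it had 18.19, 21.07, 21.45 and 21.01 CPM, against 14.06, 19.44, 19.47 and 17.18 in SW480 GFP, ranges that overlap (log2 change 0.23, not called, edgeR adjusted p = 0.0936).

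Noncoding genes of the HOXA cluster also moved in SW480. HOTAIRM1 had 6.516, 10.75, 10.26 and 11.9 CPM in SW480 dnLEF1, against 16.03, 19.57, 20.66 and 18.87 in SW480 GFP, a fall of 0.93 ± 0.15 without overlap (edgeR adjusted p = 0.000145). HOTTIP, at the HOXA13 end, had 1.093, 1.312, 1.346 and 1.342 CPM in SW480 dnLEF1, against 0.6712, 0.7597, 0.3332 and 0.7747 in SW480 GFP, a rise of 0.99 ± 0.26 without overlap (edgeR adjusted p = 0.00663). HOXA-AS2 fell by 1.13 ± 0.24 and HOXA11-AS rose by 0.63 ± 0.14 (edgeR adjusted p = 0.00163 and 0.00257). HOXA-AS2 shares exon bases with HOXA3 and HOXA4, and HOXA11-AS with HOXA11.

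Between the lines, 2 of 14 tested noncoding genes were higher and 9 lower in SW620 GFP than in SW480 GFP (78.6% called, against 78.0% of all genes), with a median log2 difference of -1.53 against -0.02 over all genes. HOXB-AS3 averaged 0.5655 ± 0.201 CPM in SW620 GFP and 49.1 ± 6.101 in SW480 GFP (SD, n = 4 each), a difference of -6.41 ± 0.17 (edgeR adjusted p = 1.57e-13). HAGLR differed by -5.66 ± 0.21 (edgeR adjusted p = 5.86e-12), in the opposite direction to HOXD9.

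CDX2 is an intestinal homeobox factor that acts on posterior HOX genes in mouse embryos. It had 0.1749, 0.04231, 0.1683 and 0.1389 CPM in SW480 dnLEF1, against 11.41, 12.2, 12.9 and 12.3 in SW480 GFP. It was almost lost there, with a fall of 6.48 ± 0.21 on the log2 scale (edgeR adjusted p = 1.77e-11). In SW620 dnLEF1 it had 11.12, 7.854, 7.666 and 8.664 CPM, against 9.338, 6.132, 5.11 and 5.895 in SW620 GFP, ranges that overlap (log2 change 0.41, not called, edgeR adjusted p = 0.201). The effects differed by 6.89 ± 0.34, SW620 minus SW480 (edgeR adjusted p = 3.06e-12). Of the 8 CDX, other ParaHox and EVX genes, only CDX2 and PDX1 were high enough to test, and PDX1, a pancreas and duodenum factor, fell in SW480 by 3.21 ± 0.34 (edgeR adjusted p = 3.14e-06). The part of CDX2 in the HOX results was not tested.

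PBX, MEIS and PKNOX proteins bind DNA together with HOX proteins. Of 9 such cofactor genes, none of 7 tested was called in SW620 by edgeR, DESeq2 or limma voom, against 8.46% of all genes by edgeR. At an unadjusted p under 0.05, 2 were higher. In SW480, 2 of 8 rose and 2 fell (50% called, against 48.5% of all genes). PBX4 had 3.63, 3.004, 3.954 and 2.823 CPM in SW480 dnLEF1, against 6.672, 6.435, 7.139 and 7.656 in SW480 GFP (log2 change -1.05 ± 0.14, edgeR adjusted p = 2.7e-05). MEIS3 had 46.18, 56.82, 60.45 and 66.56 CPM in SW480 dnLEF1, against 31.35, 43.12, 40.93 and 41.01 in SW480 GFP (0.56 ± 0.11, edgeR adjusted p = 0.00102). Neither pair of groups overlaps. PBX2 rose by 0.25 and MEIS1 fell by 0.68. Between the lines, 6 of 8 cofactors were lower in SW620 GFP and 1 higher (87.5% called, against 78.0% of all genes), with a median of -1.95.

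Of 28 Polycomb subunits, 1 rose and 1 fell in SW620 (median -0.05; 7.14% called against 8.46% of all genes), and 9 rose and 9 fell in SW480 (median -0.04; 64.3% called against 48.5% of all genes). In SW620 the catalytic subunit EZH2 rose by 0.19 ± 0.05 and the chromodomain protein CBX2 fell by 0.23 ± 0.06 (edgeR adjusted p = 0.0475 and 0.0247). In SW480, PHF19, an accessory subunit of the EZH2 complex, averaged 172.1 ± 5.724 CPM in dnLEF1 and 97 ± 7.822 in GFP cells (SD, n = 4 each), a rise of 0.83 ± 0.07 (edgeR adjusted p = 2.98e-07). PHF1, of the same kind, rose by 0.51, while PCGF5 and JARID2 fell by 0.49 and 0.55.

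Of 13 trithorax-group and HOX-activating genes, none was called in SW620 by edgeR, DESeq2 or limma voom. By edgeR 8.46% of all genes were called there, so few calls could be awaited among 13. At an unadjusted p under 0.05, 1 was higher and 2 lower. In SW480, 2 rose and 6 fell (median -0.15; 61.5% called against 48.5% of all genes). The falls included KDM6A, a demethylase of the Polycomb mark, by 0.41, CTCF, which sets chromatin boundaries in HOX clusters, by 0.35, the cohesin gene RAD21 by 0.30, and DOT1L by 0.36.

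Of 15 retinoic acid genes, none of 9 tested rose and 2 fell in SW620 (22.2% called, against 8.46% of all genes), where limma voom called 1. In SW480, 6 of 11 rose and 2 fell (72.7% called, against 48.5%). DHRS3, which turns retinaldehyde back to retinol, averaged 46.59 ± 6.311 CPM in SW480 dnLEF1 and 19.59 ± 0.3245 in SW480 GFP (SD, n = 4 each), a rise of 1.25 ± 0.09 (edgeR adjusted p = 6.77e-08). ALDH1A3, which makes retinoic acid, averaged 229.5 ± 3.556 CPM in SW480 dnLEF1 and 425.5 ± 38.16 in SW480 GFP, a fall of 0.89 ± 0.07 (edgeR adjusted p = 1.37e-07). ALDH1A3 also fell in SW620, by 0.36 ± 0.10 (edgeR adjusted p = 0.0497). CRABP1, a retinoic acid binding protein, fell in SW620 by 1.58 ± 0.29 (edgeR adjusted p = 0.00331) and rose in SW480 by 0.90 ± 0.31 (0.0286), at a low level in both lines.

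The genes within 1 Mb outside each cluster were counted for comparison. In SW620, none of 8 HOXA neighbours, none of 32 HOXC neighbours and none of 3 HOXD neighbours was called. Of 25 HOXB neighbours, 2 rose and 1 fell. By edgeR 8.46% of all genes were called there, so few or no calls could be awaited among 8 or 3 genes. At an unadjusted p under 0.05, 1 HOXA neighbour was higher, and 4 HOXC neighbours were higher and 2 lower. No HOXD neighbour passed that limit, and the HOXB counts were the same. In SW480, 12 of 28 HOXB neighbours rose and 3 fell (53.6% called, against 48.5% of all genes). Their median was 0.18 beside 0.38 for the HOXB members. HOXA neighbours had 3 rises and 2 falls of 8 (62.5% called), with a median of -0.03 beside -0.37 for the HOXA members. HOXC neighbours had 7 rises and 12 falls of 32 (59.4% called), with a median of -0.06 beside 0.21 for the HOXC members. HOXD neighbours had 1 fall of 3 and no rise (33.3% called), with a median of -0.12 beside -0.76 for the HOXD members. Between the lines, 4 of 26 HOXB neighbours were higher and 11 lower in SW620 GFP (57.7% called, against 78.0% of all genes). Their median was -0.18 beside -1.70 for the HOXB members. HOXA neighbours had 1 higher and 5 lower of 8 (75.0% called), with a median of -0.63 beside -0.40 for the HOXA members. HOXC neighbours had 18 higher and 10 lower of 32 (87.5% called), with a median of 0.39 beside 0.28 for the HOXC members. HOXD neighbours had 2 higher and 1 lower of 3, with a median of 0.26 beside -2.12 for the HOXD members. Whether members and neighbours differ was not tested.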

How the data were processed

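Polyadenylated RNA of 16 libraries (4 groups of 4) was analysed from the deposited table of whole-number counts per gene. Per the submitters' processing notes, the authors used Trimmomatic, TopHat2, HTSeq, DESeq2 and hg38; which versions, gene annotation and strand setting they used is not given in the sources used here. The 5 summary lines that name no gene entered neither library sizes nor tests (their shares stand in the report). Each 2-group comparison was fitted on its 8 libraries, and the difference between the lines in dnLEF1 effect on all 16, by the quasi-likelihood test of edgeR 4.0.16 under R 4.3.3 (filterByExpr, TMM scaling, Benjamini-Hochberg adjustment over all genes tested, call below 0.05). Alternatives were DESeq2 1.42.0, limma 3.58.1 voom, RLE scaling, no filter on low counts, 1 fit of all 16 libraries, the replicate number as a block, and leaving out each library; the edgeR fit was also tested on simulated data. CPM used TMM sizes over all 16 libraries, divided by merged exon length (GENCODE 44) for levels between genes.

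Values in every library were given for up to 3 called members with the largest change in each cluster and comparison with a mean of at least 1 CPM in 1 group, for members called in opposite directions, and for each cluster's leading member. In the other lists up to 4 genes called with dnLEF1 were named, by smallest adjusted p; HOXB-AS3, COL1A1 and others outside these rules were named after their values were seen. The values of 1 HOXA member that the rule would name are not reported here, and it is left out of the plots of single genes, while counts and sums include it. The members and lists were chosen with earlier results of these data known. Depth was 17181204 to 26153506 gene counts, and the spread between replicates exceeded counting noise in every pair.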

Additional observations from a re-analysis of the deposited data

Results flagged for a closer look

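The dnLEF1 effect differed between the lines, SW620 minus SW480 on the log2 scale, for the members named here (edgeR adjusted p below 0.05 for the difference itself). It was more positive in SW620 for HOXA3 (1.20), HOXA5 (0.72), HOXA7 (0.26), HOXA9 (0.52), HOXB4 (0.49), HOXC5 (0.96), HOXD8 (1.78), HOXD9 (1.21) and HOXD13 (1.71). It was more negative in SW620 for HOXB6 (-0.49), HOXB7 (-0.29), HOXB8 (-0.41), HOXB9 (-0.43) and HOXC8 (-0.51).

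In 6 of 119 sets of 4 libraries, 1 library stood apart from the other 3, by a rule that chance meets in about 1 of 20 sets. SW480 GFP replicate 1 had 43 CPM of HOXA7, against 46.52 to 46.94 in the other SW480 GFP libraries, and 5.33 CPM of HOXC9, against 6.758 to 6.882. SW620 GFP replicate 1 had 37.85 CPM of HOXA10, against 42 to 42.74, and 1.541 CPM of HOXD8, against 1.863 to 1.92. SW620 GFP replicate 4 had 23.4 CPM of HOXA11, against 22.03 to 22.25, and 13.89 CPM of HOXB5, against 18.76 to 19.21. All 6 were GFP libraries.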

How the results depend on the processing

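No called change had the other sign under any alternative run. Over the tests of single genes, 75 values lost a call, 26 gained one and 1950 did neither, among them 25 log2 changes of uncalled members that had the other sign. In SW620 the 5 members higher with dnLEF1 ranged from 2 to 4 when 1 library was left out. The 5 members with a more negative dnLEF1 effect in SW620 than in SW480 ranged from 3 to 7 when 1 library was left out, with 3 without SW620 GFP replicate 3, the library with the most reads aligned to several places. Calls kept in all alternatives were 17 of 19 for dnLEF1 in SW480, 1 of 5 for dnLEF1 in SW620, 25 of 28 for SW620 GFP against SW480 GFP and 9 of 15 for the difference in effect. The cause of the lost calls was not tested.

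Whether replicate numbers pair the samples was not settled. Deviations of same-numbered libraries correlated at -0.07 to 0.22 in SW480, -0.0045 to 0.25 in SW620 and -0.01 to 0.15 between the GFP groups. Not every library correlated best with its own number. The libraries numbered 1 nonetheless gave the highest correlation of all pairs in each comparison (0.22, 0.25 and 0.15). With the replicate block, 7 members rose in SW620, including all 5 called without it, and 9 rose and 9 fell in SW480. With the replicate block 6 were higher and 21 lower between the lines, and 11 and 5 for the difference in effect. At this depth HOXB1, HOXC12, HOXD1, HOXD3, HOXD4 and HOXD12 were too low to be tested in any comparison.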
